A study of Mus musculus with 62 samples.

Results

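The genes described here are 43 cell cycle and DNA replication genes of the mouse, taken by symbol from the 53975 gene identifiers in the deposited long-RNA tables. They were listed for what they do and not for a measured value, though with earlier results of these data known, and they fall into 8 roles. These are 2 proliferation markers, 3 D-type cyclins, 3 regulators of the passage from G1 into S phase, 11 genes of replication licensing and the replicative helicase, 4 genes of nucleotide supply, 5 cyclins and regulators of G2 and M phase, 8 mitotic kinases and checkpoint genes, and 7 spindle and kinetochore genes. All 43 were found in every table.

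Long RNA was measured in 17 libraries of hippocampal tissue and 14 of HT-22 cells, 31 in all. HT-22 is an immortalised mouse hippocampal cell line kept as a dividing monolayer. HT-22 cells at passage 4 received a locked nucleic acid oligonucleotide (LNA), either anti-Hsf1 at 150 nM or a scramble control given in the labels as 50 uM, for 24 h, and then 30 uM of a peptide dissolved in DMSO. The peptide was amyloid beta 1-42 (Aβ42) or its reversed sequence (R), which gave 4 libraries for each peptide with scramble LNA and 3 for each peptide with anti-Hsf1 LNA. Every HT-22 group thus carried an LNA and a peptide, and no untreated cells were analysed here. The mice were APP NL-G-F, a knock-in strain whose own App gene carries a humanised and mutated amyloid beta sequence, or C57BL/6J (WT), with both hippocampi of a mouse pooled. Both strains were sampled at 3, 6 and 12 months of age, with 3 mice a group except for WT at 3 months, which had 2.

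A dividing cell commits to a new round of replication when D-type cyclins with their kinases, and then E-type cyclins, inactivate the Rb proteins and release E2F factors. E2F factors switch on genes that load and fire the MCM helicase and that supply nucleotides, while the later B-MYB, FOXM1 and MuvB complexes switch on genes of mitosis. Most cells of the adult hippocampus have left the cycle, and the few that divide are mainly glial precursors and progenitors of the dentate gyrus.

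Promoter sequences are shown first because the genes of different roles are known to answer to different factors. RefSeq promoters (build GRCm38.p6) were found for 33 of the 43 genes, and the 250 bases before the start site were searched on both strands for 3 sets of letters, with overlapping matches of a set counted as 1. An E2F match was TTTCCCGC, TTTCGCGC, TTTGCCGC or TTTGGCGC. A match to the cell cycle homology region (CHR), to which MuvB complexes bind, was TTTGAA or TTCGAA, and the box bound by NF-Y was CCAAT. E2F letters were found in 5 of the 33 windows (15.2%, against 2.16% of 20394 genes), and 4 of these 5 belonged to the 9 licensing and helicase genes with a sequence. CHR letters were found in 11 of 33 (33.3%, against 16.6%), and CCAAT in 25 of 33 (75.8%, against 35.2%). A match describes letters in this window and is not a measured site. By the deposited gene coordinates 3 windows (E2f1, Mcm7 and Cdc6) lie wholly inside the gene, and 2 of these hold E2F letters. A further 12 windows reach into the gene by 6 to 134 bases.

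The 6 windows below, each read 5′ to 3′ on the strand of its gene with matches in capitals, are examples of the kinds of match, and no difference between roles was tested. Mcm5 (chr8:75109259-75109508, plus strand) and Mcm6 (chr1:128359706-128359955, minus strand) carry E2F letters and CCAAT boxes. Cdk1 (chr10:69352913-69353162, minus strand) carries all 3 kinds. Top2a (chr11:99024190-99024439, minus strand) has 4 CHR and 6 CCAAT matches and no E2F match. Bub1 (chr2:127831860-127832109, minus strand) has 2 CCAAT matches alone, and the D-type cyclin Ccnd3 (chr17:47504801-47505050, plus strand) has no match.
Mcm5: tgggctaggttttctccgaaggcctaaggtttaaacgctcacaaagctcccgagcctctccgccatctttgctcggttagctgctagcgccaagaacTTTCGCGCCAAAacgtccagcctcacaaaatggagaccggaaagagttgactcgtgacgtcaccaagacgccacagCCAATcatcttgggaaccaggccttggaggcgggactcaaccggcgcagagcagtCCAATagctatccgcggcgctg
Mcm6: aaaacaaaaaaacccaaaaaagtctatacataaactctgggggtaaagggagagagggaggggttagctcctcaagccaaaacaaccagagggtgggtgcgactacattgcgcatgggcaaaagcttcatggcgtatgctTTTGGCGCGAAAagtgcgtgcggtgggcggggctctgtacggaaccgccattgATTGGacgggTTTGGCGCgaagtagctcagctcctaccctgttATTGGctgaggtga
Cdk1: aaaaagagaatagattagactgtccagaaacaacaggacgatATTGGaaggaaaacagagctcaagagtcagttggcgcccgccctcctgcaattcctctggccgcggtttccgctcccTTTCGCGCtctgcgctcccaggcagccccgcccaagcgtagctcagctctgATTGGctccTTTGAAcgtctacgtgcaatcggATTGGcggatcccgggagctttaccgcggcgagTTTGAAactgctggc
Top2a: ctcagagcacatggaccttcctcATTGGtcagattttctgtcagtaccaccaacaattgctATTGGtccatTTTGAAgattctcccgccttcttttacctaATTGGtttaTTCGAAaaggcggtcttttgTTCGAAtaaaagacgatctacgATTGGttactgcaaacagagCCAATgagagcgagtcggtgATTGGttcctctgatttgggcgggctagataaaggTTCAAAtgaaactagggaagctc
Bub1: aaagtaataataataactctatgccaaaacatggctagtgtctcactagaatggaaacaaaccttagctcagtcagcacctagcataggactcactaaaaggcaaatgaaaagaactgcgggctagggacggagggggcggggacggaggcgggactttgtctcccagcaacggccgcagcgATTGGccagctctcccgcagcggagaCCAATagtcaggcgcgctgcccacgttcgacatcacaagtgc
Ccnd3: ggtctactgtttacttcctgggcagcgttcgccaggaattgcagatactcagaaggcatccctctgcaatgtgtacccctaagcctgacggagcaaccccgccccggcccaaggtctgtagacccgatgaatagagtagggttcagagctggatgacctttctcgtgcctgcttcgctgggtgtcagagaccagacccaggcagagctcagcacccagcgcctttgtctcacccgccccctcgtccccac

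The labels were checked before the results. Neuronal markers (8 genes) summed to 1723 to 2433 scaled TPM in hippocampus and to 0 to 0.533 in HT-22 libraries, where 5 of the 8, among them Snap25 and Rbfox3, were listed at 0 in every library. The 3 dentate granule markers were at 0 in all HT-22 libraries too. The 3 markers of CA pyramidal neurons summed to 9.88 to 13.9, against 28.6 to 80.9 in hippocampus. Of these 3 markers 2 stayed below 1 in every HT-22 library. Oligodendrocyte precursor markers (6 genes) summed to 199 to 283 in HT-22, where 3 of the 6 stayed below 1, and to 36.2 to 60.2 in hippocampus. Hsf1 was at 42.8 to 61.3 scaled TPM with R and scramble LNA and at 42.7 to 52.2 with R and anti-Hsf1. After Aβ42 its range was 48.5 to 71.2 with scramble and 43.2 to 51.2 with anti-Hsf1 LNA, and neither LNA comparison was called (log2 change -0.15 with R, limma adjusted p = 0.959; -0.37 with Aβ42, adjusted p = 0.524). The groups are therefore named below by their label. Relative depth, read from Coverage over FPKM, ran from 0.724 to 2.60 in HT-22 and from 1.42 to 3.04 in hippocampus, and the number of reads behind a value is unknown.

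In HT-22 cells 41 of the 43 genes were higher than in hippocampus, most of them far above it, and the D-type cyclins Ccnd1 and Ccnd2 were the exceptions. Levels here are TPM scaled by median of ratios over all 31 libraries, and differences are those of log2(scaled TPM + 1), so that changes of genes near 0 are understated. In a joint limma fit 42 of 43 genes passed an adjusted p of 0.05, 41 higher and 1 lower in HT-22. Of all 19517 genes tested 86.2% passed, and 36.5% were called higher and 49.7% lower. The median change was 4.18 over the 43 genes and -0.21 over all genes. A cell line in culture and a whole tissue differ in cell type, growth and treatment, and these cannot be told apart here. In bulk samples fewer cells of a type and less RNA per cell cannot be told apart either.

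The widest gap was that of a proliferation marker. Top2a, the topoisomerase that untangles replicated chromosomes, was at 272.4 to 333.5 scaled TPM in the 14 HT-22 libraries (median 310.3) and at 0 to 3.46 in the 17 hippocampus libraries (median 0.390). Its log2 difference was 7.44 (SE 0.14, limma adjusted p = 9.34e-26). Mki67, which encodes the Ki-67 protein of cycling cells, was at 58.1 to 88.4 in HT-22 (median 77.5) and 0.892 to 1.89 in hippocampus (median 1.36). For both genes every HT-22 library lay above every hippocampus library, as was so for 41 of the 43 genes and for 17.4% of all genes tested.

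Among mitotic genes the hippocampal values reached 0. Cdc20, which activates the anaphase-promoting complex, had a median of 58.1 scaled TPM in HT-22 and 0.175 in hippocampus, a log2 difference of 5.61 (SE 0.08, limma adjusted p = 2.35e-28). Birc5 (survivin) differed by 5.57 and Aurkb, both of the chromosomal passenger complex, by 5.46. Bub1 and Ube2c, a checkpoint kinase and a ubiquitin-conjugating enzyme of mitotic exit, differed by 5.34 and 5.19. All 8 genes of the mitotic kinase and checkpoint group were called higher, with a median of 5.26, and so were the 7 spindle and kinetochore genes, with a median of 4.18 and the largest value, 4.93, in the motor gene Kif23.

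The regulators of G2 and M phase followed. Cdk1, the kinase that drives entry into mitosis, was at 28.8 to 47.3 scaled TPM in HT-22 and at 0 to 1.03 in hippocampus, where 10 of 17 libraries listed it at 0. Ccnb1, its cyclin partner, was at 21.03 to 36.1 in HT-22 and at 0 in 11 of the 17 hippocampus libraries, with a highest value of 0.389. Ccna2 was at 72.9 to 100.2 and 0.802 to 2.56. The log2 differences were 5.12 for Cdk1, 4.72 for Ccnb1 and 4.98 for Ccna2, and all 5 genes of the role were called higher.

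Of the 43 genes 12 were listed at 0 in at least 1 hippocampus library, and none of the 43 was at 0 in any HT-22 library. Aurkb, Bub1 and Ube2c were at 0 in 12 libraries each, Cdc20 in 6, Ccnb2, Birc5 and Kif23 in 4, Cdc6 and Plk1 in 3 and Top2a in 1, beside Ccnb1 and Cdk1. Cdc6, which loads the MCM helicase, was the only licensing gene among them. The other 31 genes, including the D-type and E-type cyclins, E2f1 and the 6 Mcm genes, were above 0 in all 17 libraries.

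Of the 11 licensing and helicase genes 7, the 6 Mcm genes and Pcna, reached a mean of 1 scaled TPM in the tissue, and Cdc6, Cdt1, Cdc45 and Gins2 did not. All 11 were called higher in HT-22, with a median of 3.89. Mcm2, a subunit of the helicase, had a median of 79.0 scaled TPM in HT-22 and 2.42 in hippocampus, and Mcm5 of 62.9 and 1.75. Mcm7 stood higher in the tissue, at 8.35 to 14.3, and differed by 2.79. Pcna, the clamp that holds DNA polymerase and also serves in repair, had the smallest difference of the role at 2.11 (SE 0.05, limma adjusted p = 1.18e-22), with 123.3 to 174.5 in HT-22 and 25.5 to 39.3 in hippocampus. The value of Gins2 is uncertain, since 67.3% of its exon length overlaps the antisense gene Gse1, and whether reads were counted by strand is not stated in the sources used. Smaller overlaps touch Kif20a (29.3%), Ccnd1 (23.4%, with LTO1), Ube2c (22.8%), Ccne2 (17.4%), Mcm7 (12.6%) and Ccna2 (12.5%).

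Nucleotide supply genes were called higher in HT-22 in 4 of 4 cases, with a median of 4.26. Tk1, the thymidine kinase of the salvage route, had a median of 67.3 scaled TPM in HT-22 and 0.824 in hippocampus and differed by 5.27. Rrm2, the S-phase subunit of ribonucleotide reductase, was at 36.4 to 77.6 and 0.146 to 1.64. Its partner Rrm1, the large subunit, differed less, by 3.28, with a hippocampal median of 7.88.

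The D-type and E-type cyclins had the smallest differences of the 43 genes. Ccne1 and Ccne2, the E-type cyclins, were 1.10 (SE 0.09) and 1.56 (SE 0.07) higher in HT-22, and E2f1 was 3.32 higher. Ccnd3 was 1.01 higher (SE 0.06, limma adjusted p = 2.74e-14). Ccnd2 had a median of 31.7 scaled TPM in HT-22 and 32.9 in hippocampus, with overlapping ranges and a difference of 0.04 (95% interval -0.16 to 0.25, limma adjusted p = 0.681). On TPM as deposited its medians were 49.0 in HT-22 and 23.7 in hippocampus, with ranges that still overlapped, so the near equality depends on the scaling.

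Ccnd1 (ENSMUSG00000070348, GRCm38 chr7:144929931-144939925, minus strand), the cyclin whose transcription growth factors switch on, went the other way. Its median was 9.01 scaled TPM in HT-22 and 18.5 in hippocampus, where the 17 libraries spanned 14.8 to 21.4, but the HT-22 libraries spanned 6.12 to 54.0 because 3 of them lay far above the rest. The fitted difference was -0.61 (SE 0.26, limma adjusted p = 0.0351), and without those 3 libraries it was -1.10 (adjusted p = 1.495e-12). On TPM as deposited, where the median of all genes moved to 0.62, it was 0.25 (adjusted p = 0.381), so the direction for Ccnd1 depends on the scaling. The call was also lost with quantile normalisation (adjusted p = 0.205), and when any 1 of 6 libraries was left out (adjusted p between 0.05198 and 0.06336): replicate 1 of WT at 3 months, replicates 1 and 2 of Aβ42 with scramble, replicates 1 and 2 of R with scramble, and replicate 2 of R with anti-Hsf1 LNA.

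The order of the genes differed between the systems as well. In HT-22 Top2a and Pcna had the highest medians of the 43 genes and Ccnb2 (6.94) and Ccnd1 (9.01) the lowest. In hippocampus Pcna (33.2), Ccnd2 (32.9), Ccnd1 (18.5) and Ccnd3 (14.1) led. The ranges of Pcna and Ccnd2 overlapped there, as did those of Ccnd1 and Ccnd3, while every library had Ccnd1 (up to 21.4) below the lowest Ccnd2 value (23.3). These are medians of scaled TPM, which is per length, and they were not tested.

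**Figure D1:**
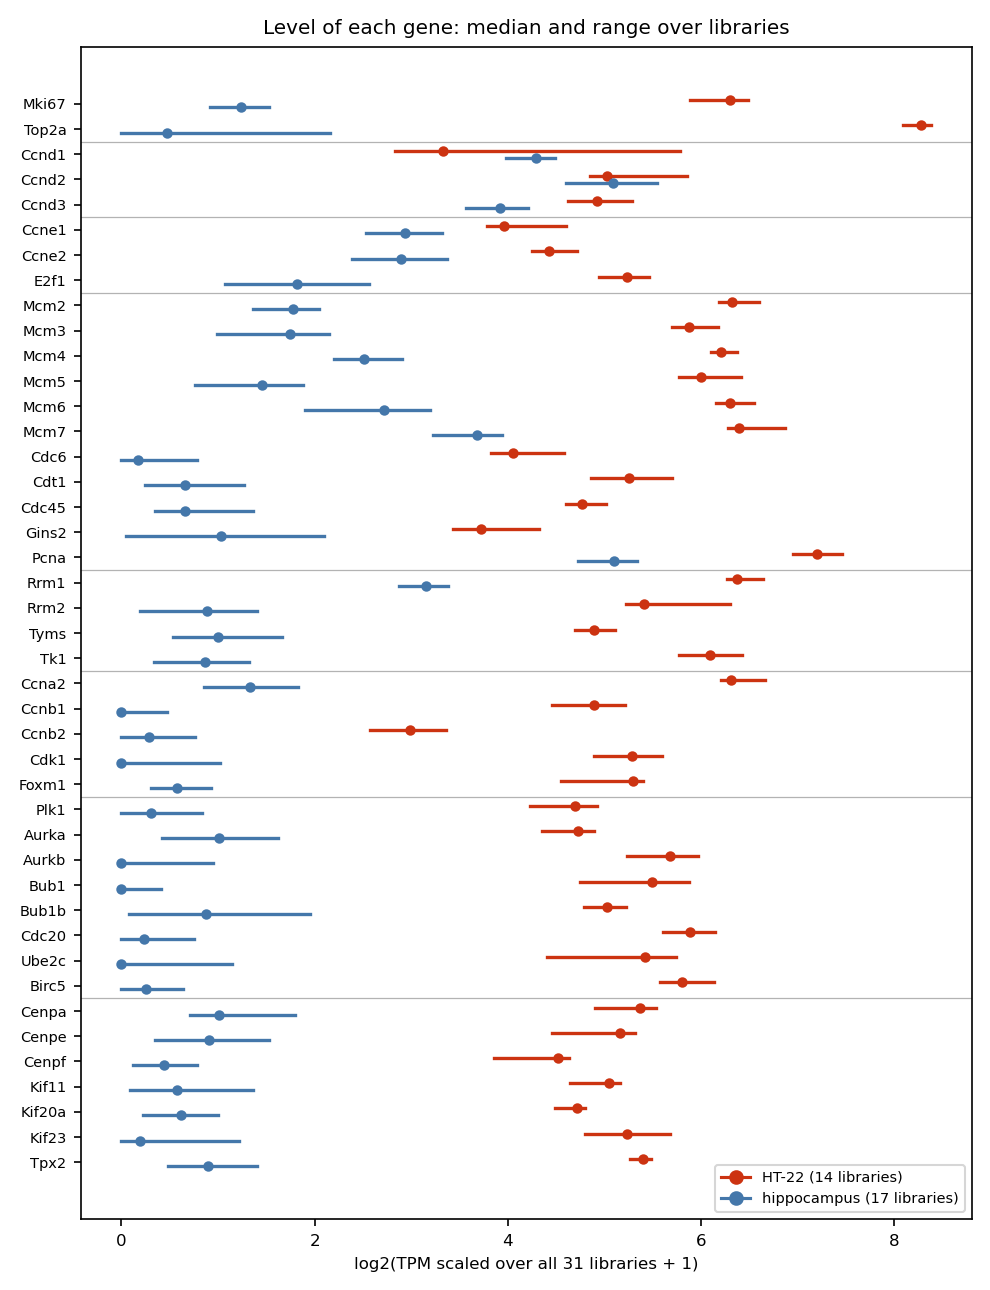
Level of each of the 43 genes in the 14 HT-22 libraries (red) and the 17 hippocampus libraries (blue), on the log2 scale of TPM scaled over all 31 libraries plus 1, with the median as a point and the range as a line. The ranges are apart for 41 genes and overlap for Ccnd1 and Ccnd2.

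Further genes of the same pathways, 114 in 5 lists, were read beside the 43. Of the 112 that reached the minimum level in the joint fit, 95 were called higher and 13 lower in HT-22, with a median of 2.74. Uhrf1, which guides maintenance of DNA methylation at the fork, was 5.57 higher (SE 0.11, limma adjusted p = 3.21e-25), Ect2, a regulator of cytokinesis, 5.38, and Chaf1b of the chromatin assembly factor 5.30. In mitosis 36 of 37 genes were called higher and none lower, and at origins and forks 33 higher and 3 lower of 36. The 8 tested CDK inhibitors and Rb proteins divided evenly, 4 higher and 4 lower. Cdkn1a, the p21 inhibitor, was 2.80 higher in HT-22 (SE 0.21), while Cdkn1c (-2.89, the p57 inhibitor) and Rb1 (-1.04), named after their values were seen, were lower.

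Within HT-22 cells the question was whether Aβ42 or the anti-Hsf1 LNA changed these genes, and none of the 43 passed the test. Values from here are TPM scaled over the 14 HT-22 libraries. With limma, 0 of 43 genes were called for Aβ42 against R with scramble LNA (0% of all 17205 genes) and 0 with anti-Hsf1 LNA (0%). The count was also 0 of 43 for anti-Hsf1 against scramble LNA with R (0%), for the same with Aβ42 (0.0232%) and for the interaction of peptide and LNA (0%). At an unadjusted p under 0.05 the numbers were 1, 1, 2, 3 and 2 of 43. The share of all genes at an unadjusted p was not computed, here or below, so such numbers have no background. The median change of the 43 genes lay between -0.05 and 0.05 in the 5 comparisons. Without the 3 libraries described below 0 of 43 were again called in each, with 0.00579%, 0.0232%, 0%, 0.0232% and 0.0232% of all genes and 2, 1, 2, 0 and 2 of the 43 at an unadjusted p under 0.05.

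**Figure D2:**
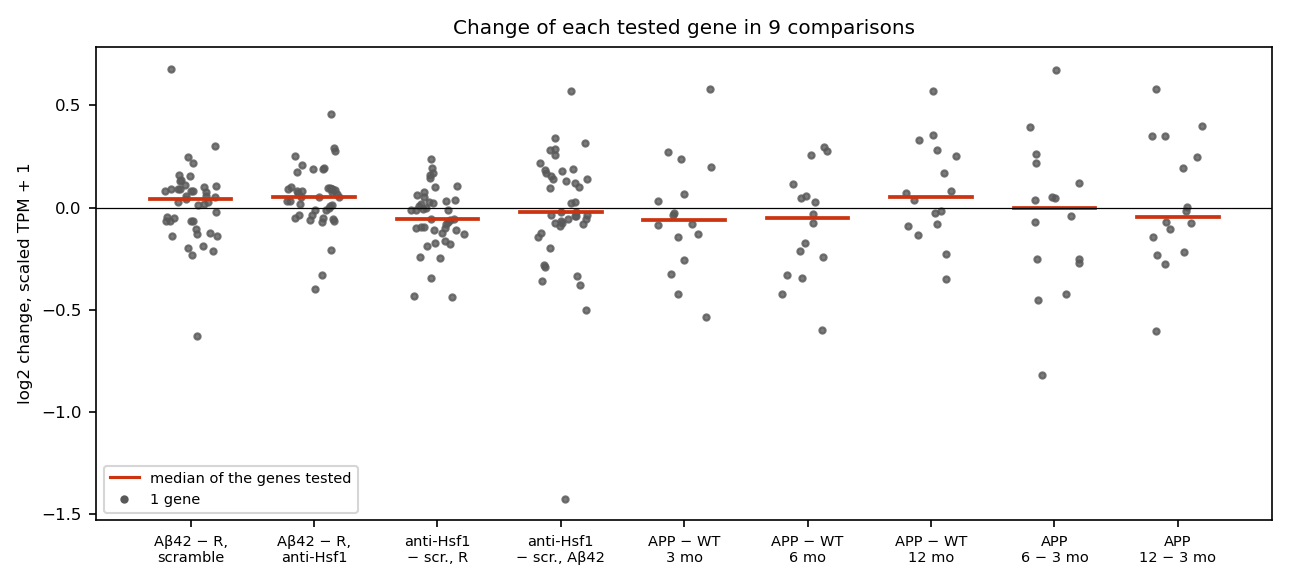
Log2 change of each tested gene (grey points, jittered sideways) and their median (red line) in 9 comparisons, 43 genes in the 4 of HT-22 cells and 16 in the 5 of hippocampus, where scr. is scramble LNA and mo is months of age. No point passed an adjusted p of 0.05, and the lowest, Ccnd1 at -1.43 for anti-Hsf1 LNA with Aβ42, rests on 2 high scramble libraries.

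For Aβ42 against R with scramble LNA the smallest p values belonged to Ube2c, Cdt1 and Tyms. Ube2c was at 51.2, 58.8, 29.1 and 33.9 scaled TPM with Aβ42 and at 76.0, 62.7, 61.0 and 61.0 with R. All 4 Aβ42 values lay below the R values. The fitted change was -0.63 (SE 0.21, limma adjusted p = 0.869), and it was -0.27 without the 3 libraries. Cdt1, a licensing factor, changed by 0.25 (adjusted p = 0.953), and Tyms, the thymidylate synthase, by 0.16 (adjusted p = 0.953). With anti-Hsf1 LNA the first 3 were Ccnb2 (0.46, SE 0.15, adjusted p = 1.00), Ccnb1 (-0.33) and the centromeric histone gene Cenpa (0.28).

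For anti-Hsf1 against scramble LNA the first 2 genes with R were Foxm1 and Ccnb2. Foxm1, a transcription factor of the G2 and M phase programme, was at 55.6, 56.1, 52.1 and 54.5 scaled TPM with R and scramble, and at 32.9, 51.3 and 37.8 with R and anti-Hsf1 LNA. These groups did not overlap, but the log2 change of -0.44 (SE 0.14) had an adjusted p of 0.959 in limma. Ccnb2, a B-type cyclin, was at 11.2, 10.4, 12.7 and 10.9 with scramble and at 9.34, 7.83 and 7.25 with anti-Hsf1 LNA, a change of -0.43 (SE 0.14, adjusted p = 0.959). With Aβ42 the same gene was at 9.27, 11.1, 9.20 and 9.58 with scramble and at 11.6, 13.5 and 9.75 with anti-Hsf1 LNA, and the interaction was 0.65 (SE 0.20, adjusted p = 0.767). The third gene with R was Ccne2, at 0.19 (SE 0.12).

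With Aβ42 the smallest p values for anti-Hsf1 against scramble were those of Ube2c (0.57, SE 0.22, limma adjusted p = 0.523), Ccnb1 (-0.38, SE 0.17) and Ccnd2 (-0.50, SE 0.23). Ccnb1 was at 42.6, 42.7, 52.1 and 38.7 scaled TPM with scramble and at 30.6, 34.1 and 35.6 with anti-Hsf1 LNA, with no overlap and an adjusted p of 0.551. Ccnd2 was at 47.7, 51.6, 77.4 and 82.2 with scramble and at 41.8, 46.7 and 44.0 with anti-Hsf1 LNA. The groups did not overlap, and its 2 highest values came from libraries that stood apart. Without the 3 such libraries the change of Ccnd2 was -0.17 (adjusted p = 0.705) and that of Ube2c 0.18 (adjusted p = 0.851). Ccnd1 had the largest change in size, -1.43 (SE 0.75, adjusted p = 0.561), which was -0.07 (adjusted p = 0.962) without them. With array weights, which give each library a weight by its fit, 8 of 43 genes were called here, against 10.5% of all genes, among them Ube2c (0.87, adjusted p = 0.0311) and Ccnd2 (-0.69, adjusted p = 0.0316).

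The counts in 3 of these comparisons depended on the scaling. On TPM as deposited 37 of 43 genes were called lower for anti-Hsf1 against scramble LNA with Aβ42, but 50.5% of all genes were too, and the median of all genes was -0.62. For Aβ42 against R with anti-Hsf1 LNA it was 20 of 43 lower, with 24.2% of all genes and a median of -0.52, and for the interaction 25 of 43 lower, with 25.3% and -0.68. After scaling the medians of all genes lay between -0.01 and 0.00.

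A set of 3 scramble libraries stood apart from the other 11 HT-22 libraries, and 19 of the 43 genes lay wholly to 1 side in them. These were 12 genes highest there and 7 lowest, where 15.9% of all genes were highest and 11.7% lowest. They were replicates 3 and 4 of Aβ42 with scramble and replicate 4 of R with scramble, so they came from both peptides. Ccnd1 was at 77.9, 77.4 and 71.4 scaled TPM in them and at 8.88 to 15.1 in the other 11. The 3 were picked out by their values of immediate-early genes, which are not among the 43, so these figures are a description with no test.

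All 3 D-type cyclins had their 3 highest values there. Ccnd2 was at 77.4, 82.2 and 81.0, with 40.3 to 51.6 elsewhere, and Ccnd3 at 55.0, 49.9 and 45.6, with 34.3 to 44.7 elsewhere. Of the early genes Ccne1 was at 28.5, 33.7 and 32.1, with 18.6 to 23.9 elsewhere. Rrm2 was at 97.4, 95.7 and 110.6, with 52.9 to 67.1 elsewhere.

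Licensing genes moved the same way in part. Mcm5 was at 120.0, 118.4 and 119.7 scaled TPM, with 77.9 to 96.8 elsewhere, and Mcm7 at 160.6, 167.5 and 161.7, with 111.6 to 138.5 elsewhere. Mcm2, Mcm3 and Gins2 also had their 3 highest values in these libraries, which made 5 of the 11 licensing genes. With Rrm1 and Cdc20 this came to 12 of the 43 genes, 27.9%, where 15.9% of all 17205 genes had their 3 highest values in the same libraries.

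Some mitotic genes were lowest in the same 3 libraries. Bub1 was at 37.4, 43.8 and 41.5 scaled TPM, with 58.2 to 83.8 elsewhere. Cenpe, a kinetochore motor, was at 30.3, 31.8 and 32.7, with 47.3 to 56.8 elsewhere, and Cenpf at 19.4, 21.8 and 24.6, with 29.4 to 34.5 elsewhere. Mki67 was at 84.1, 85.2 and 82.9, with 105.0 to 128.4 elsewhere. With Aurka, Aurkb and Kif11 this came to 7 of the 43 genes, 16.3%, against 11.7% of all genes. None of the 5 cyclins and regulators of G2 and M phase fell wholly to 1 side, and Top2a, at 422.0, 462.7 and 475.4, lay within or just above the range of the others.

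Other measures moved with the same libraries, relative depth only in part. Immediate-early genes were what the 3 libraries were picked out by, so their high values there were set by that choice. All 12 of a list added after the data were seen were highest there. Among them Egr1 was at 216.6, 238.3 and 323.8 scaled TPM, with 24.1 to 41.6 elsewhere, and Myc at 119.8, 185.2 and 159.5, with 33.9 to 57.7 elsewhere. Cdkn1a was at 133.1, 125.9 and 144.1, with 34.4 to 49.1 elsewhere. Relative depth was 1.64, 1.203 and 2.60 in the 3 libraries and 0.724 to 1.21 in the others. The value of 1.203, of replicate 4 of Aβ42 with scramble LNA, lay within the range of the others. The part of each in the levels of the 43 genes was not tested.

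**Figure D3:**
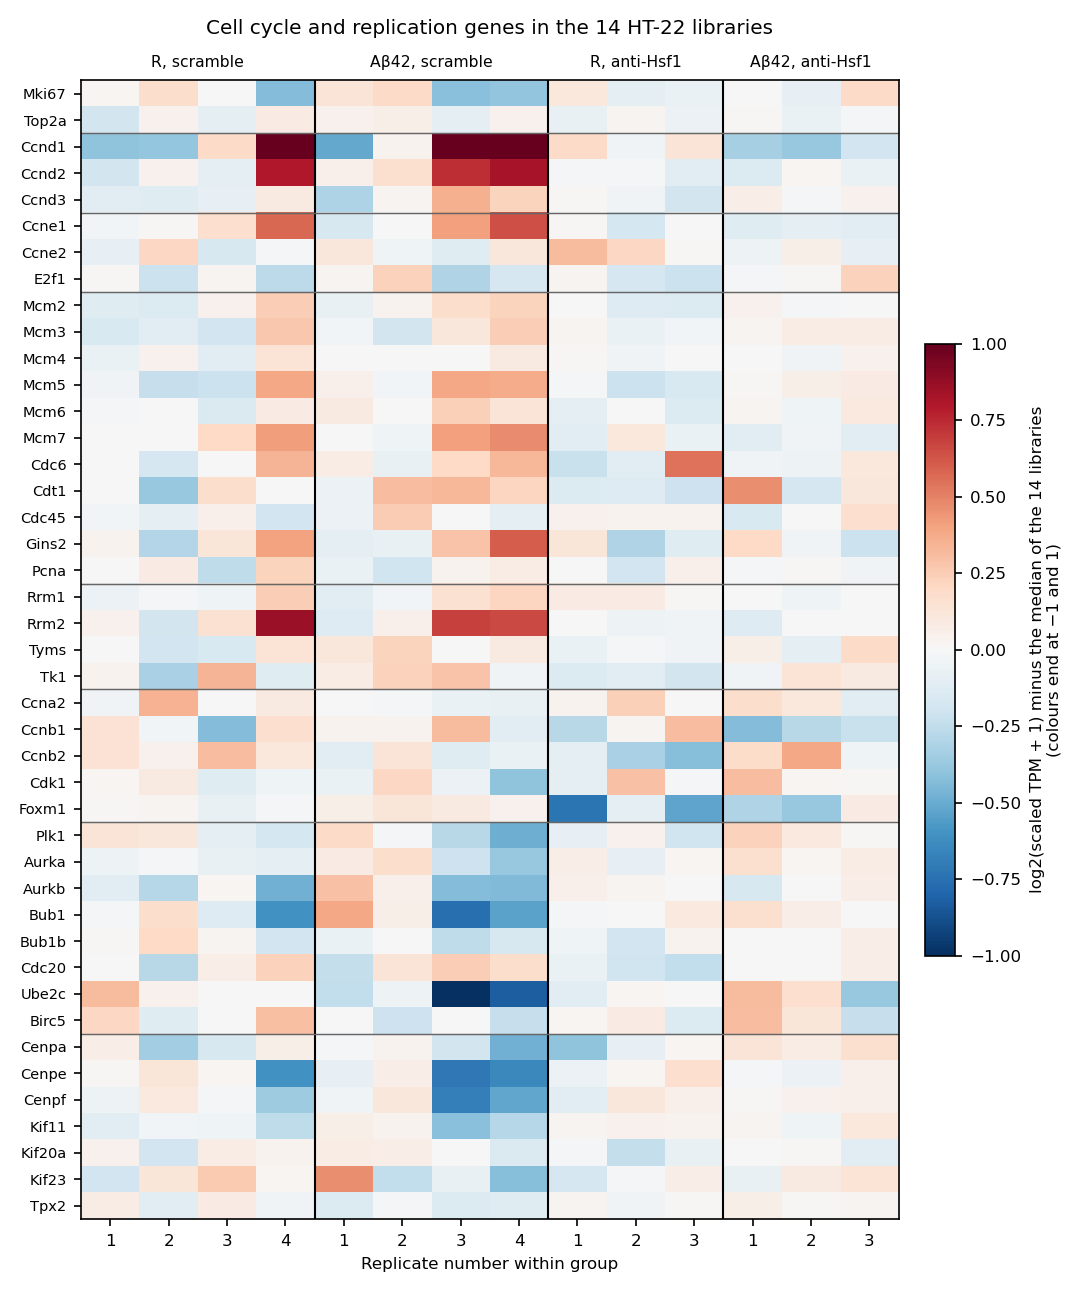
Each of the 43 genes (rows, by role) in each of the 14 HT-22 libraries (columns, by group and replicate), as log2(scaled TPM + 1) minus the median of the gene over the 14 libraries, with colours ending at -1 and 1. R scramble replicate 4 and Aβ42 scramble replicates 3 and 4 are red for the D-type cyclins, Ccne1 and Rrm2 and blue for Bub1, Cenpe and Cenpf.

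**Figure D4:**
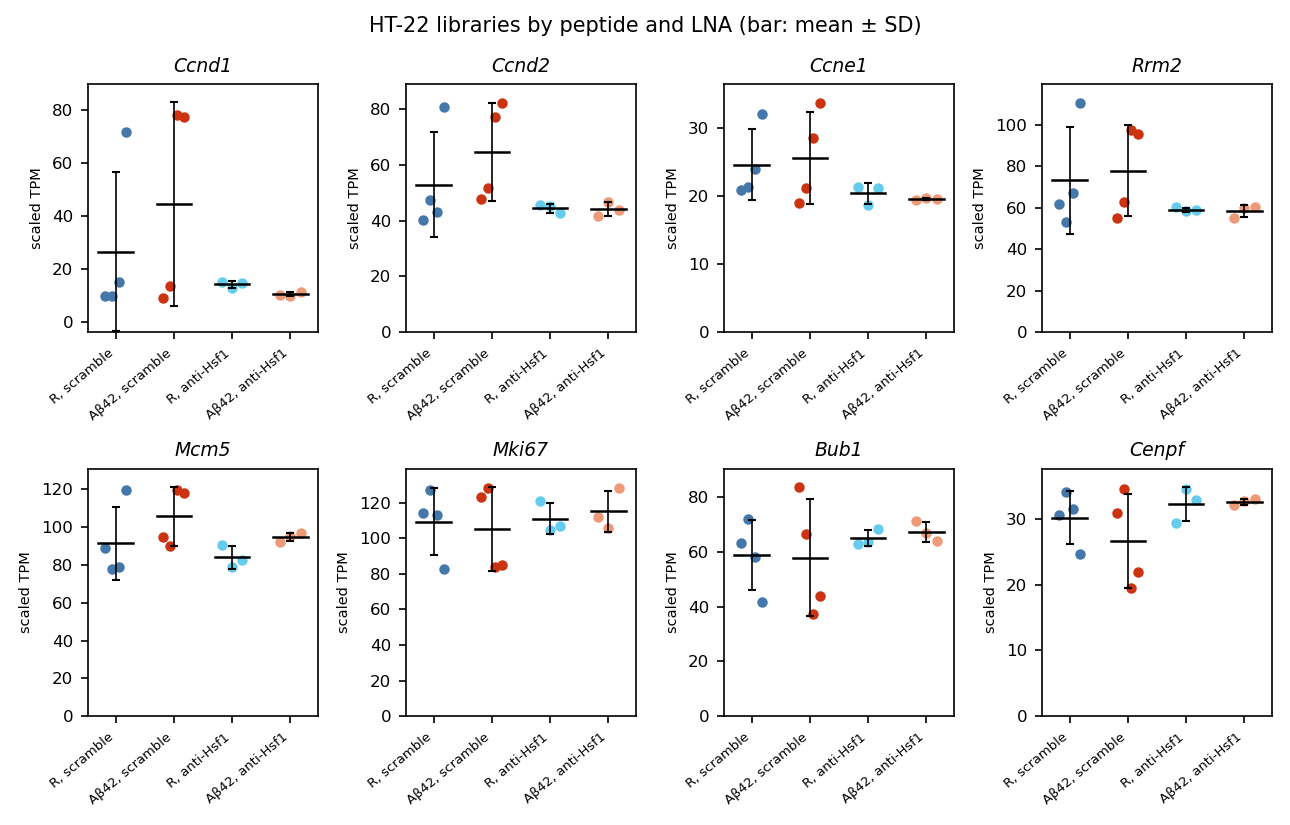
Scaled TPM of 8 genes in the 4 HT-22 groups, with 1 point a library and black bars for the mean ± SD (n = 4, 4, 3 and 3 from left to right). In the scramble groups Ccnd1, Ccnd2, Ccne1, Rrm2 and Mcm5 have 1 (R) or 2 (Aβ42) libraries above the rest, and in the same libraries Mki67, Bub1 and Cenpf lie below it.

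Levels of the other main genes moved little between the 4 HT-22 groups. With SDs over n = 4, 4, 3 and 3 libraries, Pcna was at 216.7 ± 29.2 scaled TPM for R scramble, 208.1 ± 16.99 for Aβ42 scramble, 207.5 ± 18.1 for R anti-Hsf1 and 211.8 ± 3.2 for Aβ42 anti-Hsf1. Cdk1 was at 54.7 ± 3.4, 52.8 ± 9.2, 58.1 ± 8.7 and 60.1 ± 7.3 in the same order. Ccna2 was at 122.9 ± 15.8, 111.0 ± 2.7, 122.0 ± 11.2 and 119.2 ± 12.1, and Tk1 at 97.6 ± 19.4, 107.8 ± 10.7, 87.9 ± 2.3 and 101.9 ± 6.4. The 4 groups overlapped for Pcna and Cdk1. For Tk1 the R libraries with anti-Hsf1 LNA (85.5 to 90.0) lay below both Aβ42 groups, though no comparison of it was called.

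In the same order of groups Top2a was at 438.3 ± 37.1, 454.2 ± 21.6, 439.5 ± 17.5 and 442.9 ± 12.8 scaled TPM (SD). Cdc20 was at 85.4 ± 12.3, 90.0 ± 12.7, 75.1 ± 4.9 and 85.7 ± 2.2, and Mcm2 at 116.3 ± 15.0, 122.8 ± 11.5, 108.2 ± 6.0 and 115.6 ± 2.4. Mki67 was at 109.4 ± 18.8, 105.2 ± 23.8, 111.1 ± 8.7 and 115.4 ± 11.5. For these 4 genes and Tk1 the SD was larger in both scramble groups than in both anti-Hsf1 groups. That was not so for Pcna, Cdk1 or Ccna2. The scramble groups hold the 3 libraries that stood apart, and the part of these libraries in the SDs was not tested.

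In the hippocampus the question was whether the APP genotype or age changed these genes, and none of the 16 that could be tested passed. Values from here are TPM scaled over the 17 hippocampus libraries. The 16 genes with a mean of at least 1 were the 3 D-type cyclins, Ccne1, Ccne2, E2f1, Mcm2 to Mcm7, Pcna, Rrm1, Ccna2 and Mki67, and the other 27 lay below it. With limma 0 of 16 were called for APP against WT at 3 months (0.299% of all 17720 genes), at 6 months (1.51%) and at 12 months (0.451%). The count was 0 as well for the mean over ages (0.220%) and for genotype by age (0.451%). It was 0 for APP at 12 against 3 months (3.34%) and at 6 against 3 months (2.19%), and for WT at 12 against 3 months (0.0621%) and against 6 months (0%). At an unadjusted p under 0.05 the numbers were 3, 2, 2, 0, 3, 4, 5, 0 and 1 of 16, in that order. The shares above are for adjusted p, and none was computed for the unadjusted p, so these numbers are not read further.

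Other features of the tissue libraries moved with the groups. Xist was at 70.6 to 136.6 scaled TPM in every APP library and in WT at 3 months, and at 0.264 to 0.518 in WT at 6 and 12 months, where Ddx3y was at 18.4 to 28.0. Genotype at 6 and 12 months, and 3 months against the later ages in WT, therefore cannot be told apart from sex. The mean over ages and genotype by age take in the same groups, so sex is mixed into them too. Markers of CA pyramidal neurons (3 genes) summed to 28.6 to 46.6 in APP and 70.6 to 79.0 in WT mice at 3 months. Values of E2f1, Ccnd2, Mcm6 and Cdt1 in these groups are given below. Microglial markers (7 genes) summed to 198.6 to 263.9 in APP at 12 months and to 92.5 to 105.1 in WT. Choroid plexus markers (6 genes) summed to between 38.0 and 2422, with both ends of the range in APP mice. Oligodendrocyte markers (6 genes) summed to 1331 to 2445 at 3 months and to 739.2 to 1172 at the later ages. Their part in the results was not tested.

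The D-type cyclins and Pcna were the best measured of these genes in the tissue. Ccnd1 was at 13.9 ± 1.2 scaled TPM (SD, n = 2) in WT and 12.5 ± 1.4 (SD, n = 3) in APP mice at 3 months, at 14.02 ± 1.6 and 13.7 ± 0.73 (SD, n = 3 each) at 6 months, and at 13.3 ± 1.8 and 15.0 ± 0.94 (SD, n = 3 each) at 12 months. Ccnd2 was at 29.5 and 29.4 in WT and at 17.4, 24.5 and 24.0 in APP mice at 3 months, with no overlap and a difference of -0.42 (SE 0.19, limma adjusted p = 0.335). At 6 months the order was turned, with 21.5, 21.2 and 20.9 in WT and 22.9, 29.4 and 26.9 in APP mice, and genotype by age had an adjusted p of 0.212. Ccnd3 was at 9.84 ± 0.93 in WT and 12.6 ± 0.57 in APP mice at 12 months (SD, n = 3 each), a change of 0.33 (SE 0.13, adjusted p = 0.542). In APP mice it changed by 0.35 (SE 0.13, adjusted p = 0.171) from 3 to 12 months.

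Pcna was at 25.3 to 30.1 scaled TPM in WT and 19.0 to 23.4 in APP mice at 6 months, a change of -0.34 (SE 0.12, limma adjusted p = 0.142). At 3 and 12 months the 2 genotypes overlapped. Ccne2 was at 5.91 ± 0.57 in WT and 3.57 ± 0.51 in APP mice at 6 months (SD, n = 3 each), a change of -0.60 (SE 0.19, adjusted p = 0.114). Ccne1 was at 5.48 ± 0.48 in WT and 4.10 ± 0.59 in APP mice at 12 months (SD, n = 3 each), a change of -0.35 (SE 0.19, adjusted p = 0.807). Over the 3 ages together Ccne2 changed by -0.22, Ccne1 by -0.18 and Pcna by -0.11, with adjusted p between 0.449 and 0.568. On TPM as deposited 7 of 16 genes were called higher in APP mice at 6 months, where 57.6% of all genes were and the median of all genes was 0.60. On that scale 5 of 16 were called for genotype by age (33.1% of all genes) and 2 of 16 higher in APP mice at 6 than at 3 months (6.77%).

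E2f1 (ENSMUSG00000027490, GRCm38 chr2:154559407-154569892, minus strand), which encodes an activating E2F factor, came nearest to the threshold. In APP mice it was at 2.88, 3.64 and 3.08 scaled TPM at 3 months, at 1.70, 0.817 and 1.71 at 6 months and at 2.098, 1.23 and 2.01 at 12 months. All 3 values at 3 months lay above the later ones. The change from 3 to 6 months was -0.82 (SE 0.21, limma adjusted p = 0.0515), and it was called with quantile normalisation (-0.85, adjusted p = 0.0418). Over all 14 alternatives run for it, leaving out single libraries among them, the adjusted p ran from 0.0418 to 0.224. The change from 3 to 12 months was -0.61 (SE 0.21, adjusted p = 0.136). In WT mice E2f1 was at 1.98 and 1.62 at 3 months and at 1.69 to 3.05 at 6 months, and APP against WT at 3 months gave 0.58 (SE 0.23, adjusted p = 0.277). The genotype by age test had an adjusted p of 0.206, so a difference between the genotypes in this course was not shown.

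Of the helicase genes Mcm6 had the smallest p values. It was at 2.04, 3.18 and 2.49 scaled TPM in APP mice at 3 months and at 4.40, 4.88 and 4.69 at 6 months, a change of 0.68 (SE 0.22, limma adjusted p = 0.112). In WT mice at 3 months it was at 3.70 and 4.60, above the 3 APP values of that age (-0.53, SE 0.24, adjusted p = 0.361). Mcm3 changed by 0.57 (SE 0.22, adjusted p = 0.543) for APP against WT at 12 months. Mcm2 stayed at 1.19 to 2.33, Mcm5 at 0.519 to 1.99 and Mcm7 at 6.22 to 10.7 over all 17 libraries. Rrm1 changed by -0.27 (SE 0.12, adjusted p = 0.232) from 3 to 6 months in APP mice.

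Age in WT mice gave no call either. From 3 to 12 months the first 3 genes were Ccna2 (-0.45, SE 0.25, limma adjusted p = 0.656), Ccnd3 (-0.24) and Ccnd2 (-0.30). From 6 to 12 months they were Mcm3 (-0.57, SE 0.22, adjusted p = 0.717), Mcm4 (0.26) and Mcm2 (-0.27).

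Genes below the minimum level were read with a pseudocount of 0.1 and a mean of at least 0.1, which let 39 of the 43 in. In that fit Rrm2 was lower at 6 than at 3 months in APP mice (-1.98, SE 0.36, limma adjusted p = 0.0239), the 1 gene of the 39 called in that comparison, where 0.401% of all genes were called lower. Rrm2 (ENSMUSG00000020649, GRCm38 chr12:24708241-24714146, plus strand) was at 1.195, 0.887 and 1.13 scaled TPM in APP mice at 3 months. At 6 months it was at 0.206, 0.109 and 0.296. Its values at 12 months, not tested against those at 6 months, were 0.634 to 0.761. In WT mice it was at 1.10 and 1.21 at 3 months, 0.320 to 0.603 at 6 months and 0.376 to 0.848 at 12 months. In both genotypes every value at 3 months lay above every later value of the same genotype. In WT mice that order cannot be told apart from the sex of the mice. The change from 3 to 12 months was not called in APP (-0.54, adjusted p = 0.589) or WT mice (-0.93, adjusted p = 0.622).

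Top2a was spread widely at 3 months. It was at 1.23 and 1.91 scaled TPM in WT and at 2.31, 0.119 and 2.59 in APP mice of that age, while no later library passed 0.851. Its change from 3 to 6 months in APP mice was -2.16 (SE 0.88, limma adjusted p = 0.267) and from 3 to 12 months in WT mice -2.65 (SE 0.98, adjusted p = 0.547). Cdt1, named after its values were seen, was at 0.176 and 0.136 in WT and at 1.01, 0.696 and 1.05 in APP mice at 3 months, with no overlap (1.98, SE 0.43, adjusted p = 0.115).

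Markers of the cell types that can divide were read beside these values. Progenitor and neuroblast markers (10 genes) summed to 50.0 to 57.7 scaled TPM at 3 months, 44.5 to 62.9 at 6 months and 45.1 to 54.7 at 12 months. That sum hides differences between single markers. Sox11 was at 9.74 to 9.85, 5.10 to 6.94 and 4.06 to 5.99 at the 3 ages in WT mice. In APP mice it was at 6.68 to 9.43, 7.46 to 9.68 and 4.68 to 5.68. Dcx was at 7.48 to 7.70, 5.61 to 10.1 and 6.02 to 8.44 in WT mice. Its range in APP mice was 5.48 to 7.89, 5.18 to 5.52 and 4.43 to 4.97. The other markers of this list are not given singly. Oligodendrocyte precursor markers (6 genes) summed to 41.2 to 60.2, 39.0 to 48.7 and 36.2 to 41.9 at the 3 ages. Their part in the levels of Rrm2, Top2a and E2f1 was not tested.

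**Figure D5:**
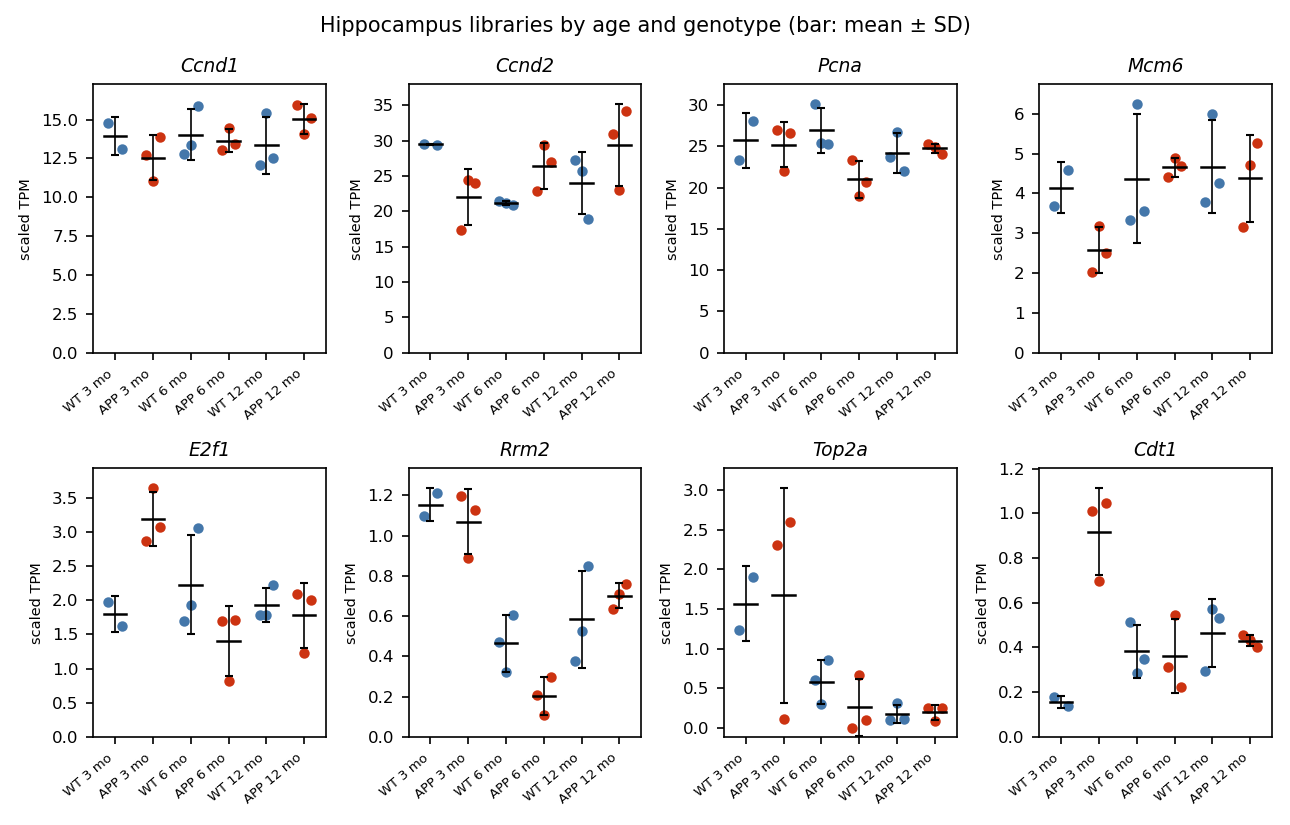
Scaled TPM of 8 genes in the 6 hippocampus groups, WT in blue and APP in red at 3, 6 and 12 months, with 1 point a mouse and black bars for the mean ± SD (n = 2 for WT at 3 months and 3 elsewhere). Rrm2 and Top2a were higher at 3 months than later in most libraries, and E2f1 and Cdt1 were highest in the APP mice of 3 months.

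The mitotic genes were low at every age and in both genotypes. The highest value of the 20 genes of G2, mitosis and the spindle in any library was 2.19 scaled TPM for Bub1b, in WT at 6 months, where the lowest was 0.0416. Cenpa reached 1.85 in WT at 3 months, and Aurka, named after its values were seen, was at 1.34 to 1.55 in APP mice at 3 months and did not pass 1.19 elsewhere. Ccnb1 did not pass 0.291 scaled TPM in any of the 17 libraries, Cdk1 0.790 and Cdc20 0.511. Mki67 was at 0.698 to 1.21 in WT and 0.664 to 1.37 in APP mice, and Ccna2 at 0.594 to 1.89 and 0.771 to 1.72. Tk1 was at 0.195 to 1.12 over all libraries. Of the 114 further pathway genes 69 were tested in hippocampus and 110 in HT-22, and with limma none was called in any comparison within either system. Cdkn1a was 0.66 higher in APP than WT mice over the 3 ages (SE 0.20, adjusted p = 0.174).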

How the data were processed

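Long RNA of 31 of the 62 libraries was analysed, 14 from HT-22 cells and 17 from hippocampus, and the short-RNA libraries were not used here. The 43 genes and the further gene lists were chosen with earlier results of these data known. The immediate-early list and the removal of 3 libraries were added after the data were seen. Per the labels' protocols RNA was depleted of ribosomal RNA, fragmented and prepared with NEBNext Ultra. Per the submitters' processing notes the tools were FastQC, cutadapt 1.18, BWA 0.7.17, HISAT2 2.1.0, bedtools 2.26.0 and StringTie 1.3.4d, with build GRCm38 (mm10), and the strand setting is not stated in the sources used.

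Values are TPM, as the authors deposited them per the file headers, summed per gene identifier. The deposited FPKM and coverage signal served only to read relative depth. TPM holds no read counts, so no counting interval is given. TPM was scaled by median of ratios over the 14, 17 or 31 libraries fitted, and log2(scaled TPM + 1) was tested for genes with a mean of at least 1 with limma 3.58.1 (R 4.3.3, trend and robust, two-sided). P-values were adjusted by Benjamini-Hochberg over all genes, and a gene was called at an adjusted p under 0.05. The 2 systems were joined in 1 fit of 10 groups for HT-22 against hippocampus only. The p-values measure the spread between these libraries, which the series' design calls biological replicates for HT-22.

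Genes named were up to 12 past the threshold with the largest change in each direction, or the 3 with the smallest p where none passed, beside 16 main genes whose levels are given throughout. On simulated data for Aβ42 against R with scramble LNA (17205 genes) 48 of 100 genes changed by 1 on the log2 scale and 85 of 100 changed by 2 were recovered. For APP against WT at 12 months (17720 genes) it was 66 and 92 of 100. False calls numbered 9 in the first comparison and 10 in the second. How far these rates hold for the measured libraries, 3 of which stood apart in HT-22, was not tested. Alternatives were other scalings, pseudocounts, filters, array weights, a replicate block, the compared groups alone and leaving out each library. Tables were read with pandas 2.3.3 (Python 3.11.15).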

Additional observations from a re-analysis of the deposited data

Results flagged for a closer look

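In the groups of 4 HT-22 libraries 1 value stood far from the other 3 in 9 of 86 sets, each of 1 gene in 1 group. Independent normal values would give about 1 in 20, but these sets come from the same libraries. The share over all genes was not computed, so 9 of 86 is not read as an excess. Of these 9, 4 were the highest value of replicate 4 of R with scramble LNA, which is among the 3 libraries that stood apart: Ccnd1 at 71.4 scaled TPM, Ccnd3 at 45.6, Mcm3 at 102 and Rrm1 at 141. Mcm4 was highest in replicate 4 of Aβ42 with scramble LNA, at 113, and Top2a lowest in replicate 3 of the same group, at 422. Outside those libraries Ube2c was highest in replicate 1 of R with scramble LNA (76.0), Kif20a lowest in its replicate 2 (32.1) and Tpx2 highest in replicate 2 of Aβ42 with scramble LNA (59.5). Groups of 2 or 3 libraries were not examined in this way.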

How the results depend on the processing

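The count of 42 of 43 genes called between HT-22 and hippocampus was 41 or 42 under all alternatives run and 41 to 42 without any 1 library. Ccnd1, called lower in HT-22, was at 0.25 on TPM as deposited. Within HT-22 the counts of 0 became 20, 37 and 25 on TPM as deposited (Aβ42 against R with anti-Hsf1 LNA, anti-Hsf1 against scramble LNA with Aβ42, and the interaction), and 8 with array weights for anti-Hsf1 against scramble LNA with Aβ42 (3 higher, 5 lower, against 10.5% of all genes). In hippocampus they became 7 for APP against WT at 6 months, 5 for genotype by age and 2 for APP at 6 against 3 months on TPM as deposited. For APP at 6 against 3 months the count was 1 with quantile normalisation, 1 with the lower pseudocount and filter, 1 with no filter and 1 with the replicate block (E2f1, -0.82, limma adjusted p = 0.04793). All other counts within either system stayed at 0, those without any 1 library among them, and the cause of the changes was not tested. The replicate numbers did not pair the libraries: the median correlation of same-numbered libraries was 0.01 in HT-22 and -0.01 in hippocampus (0.07 to 0.23 for the 3 numbers of APP at 3 and 6 months), and the block changed no other call. Depth is unknown, and 27 of the 43 genes lay too low in hippocampus for the main test.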

Other observations

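Further genes of cell division followed the 3 HT-22 scramble libraries that stood apart (replicates 3 and 4 of Aβ42 and replicate 4 of R) in different ways by list, given as values with no test. Of 37 mitosis genes 15 had their 3 lowest values there and 1 its 3 highest, where 11.7% and 15.9% of all genes did. Ect2, which acts in cytokinesis, was at 61.8, 57.1 and 59.3 scaled TPM, with 78.4 to 100.3 in the other 11 libraries. Of 36 origin and fork genes 5 were highest there and 4 lowest, and Uhrf1 was at 125.7, 121.9 and 118.5, with 85.2 to 107.5 elsewhere. Rb1, the retinoblastoma gene, was lowest there, at 12.3, 12.9 and 11.7, with 14.2 to 20.5 elsewhere.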
